A study of Vitis vinifera with 27 samples.

Results

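The genes described here stepped down repeatedly in latent buds of grapevine (Vitis vinifera) cv. Merlot, first between flowering and cluster closure and then between cluster closure and harvest. They were chosen by their mean CPM, the count of a gene scaled to the same total in every library. A member had a mean of 5 CPM or more at BBCH63 at each of nodes 2, 5 and 10, and its mean was at least 2-fold lower at BBCH77 than at BBCH63 and at least 2-fold lower at BBCH90 than at BBCH77 at every node. These limits were met by 105 of the 35134 genes in the table. The falls between stages are therefore how the genes were chosen, and the levels at each stage are given as a description, with no test. Of the 14324 genes above the level asked at BBCH63, 200 met the limit at the first step at every node, 2062 met it at the second step, and 105 (0.733%) met both.

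Latent buds form in the leaf axils of the growing shoot and carry the shoot and the inflorescence primordia of the next season under bud scales. Young organs cover their epidermis with a cuticle, a layer of cutin polyester embedded in waxes that limits water loss, keeps neighbouring organs from fusing and is assembled mostly while the surface is expanding. Expanding cells also rebuild their walls with enzymes that cut and rejoin xyloglucan and with glycoproteins at the cell surface, and many tissues exposed to light make flavonoids and other phenolics at the same time.

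Buds were sampled on field-grown, grafted Merlot vines at BBCH63 (flowering), BBCH77 (cluster closure) and BBCH90 (harvest), at the 2nd, 5th and 10th node of the shoot, which carry basal, intermediate and more distal buds. No experimental treatment was compared, and the vineyard had standard care that included phytosanitary treatments and canopy management. All vines were of 1 cultivar on Kober 5BB rootstock in 1 vineyard and season, and lateral shoots were removed through the season. Each of the 3 replicates per stage and node was a pool of buds. Stage cannot be told apart from sampling date. RNA-Seq gave 27 libraries in 9 groups. Replicate 3 of node 10 was left out at each stage, which leaves 24 libraries, 8 per stage.

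Depth was 34531620 to 53307172 counts per library. The meristem genes VvVFL, VvTFL1A and VvSOC1 were counted in all 24 libraries, VvTFL1A with as few as 2 to 10 counts at BBCH90. BBCH77 node 2 replicate 3 stood apart from its group, with a Pearson correlation of 0.129 across the 3000 most variable genes with its own group and of 0.887 with node 10 of the same stage. Less strongly, other libraries also correlated best with another node of their stage. With node 10 these were BBCH63 node 5 replicate 3 (0.864 own, 0.911), BBCH77 node 5 replicate 2 (0.839, 0.866), BBCH90 node 2 replicate 3 (0.892, 0.918) and BBCH90 node 5 replicate 3 (0.809, 0.871). With node 5 they were BBCH77 node 10 replicates 1 (0.7, 0.793) and 2 (0.7, 0.842). The 10 most counted genes held 2.11 to 2.88% of the counts at BBCH63, 2.01 to 4.55% at BBCH77 and 5.95 to 8.18% at BBCH90, so the libraries differed in make-up between stages as well as in the genes described here.

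The 105 genes together held 1.14% of all counts at BBCH63, as the median of 8 libraries, 0.433% at BBCH77 and 0.0545% at BBCH90. Their summed level ranged from 7918.4 to 16654.7 CPM at BBCH63, from 2647.1 to 5331.9 CPM at BBCH77 and from 488 to 668.9 CPM at BBCH90, and the ranges of the stages did not overlap. In buds taken whole, fewer cells of a type and less RNA per cell cannot be told apart. A member's mean at BBCH63 was between 6.67 and 1420.1 CPM with a median of 35.2 CPM, and 25 members were at 100 CPM or more. At BBCH90 the median of the members' means was 0.635 CPM, with 63 of the 105 under 1 CPM and 18 still at 5 CPM or more.

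**Figure D1:**
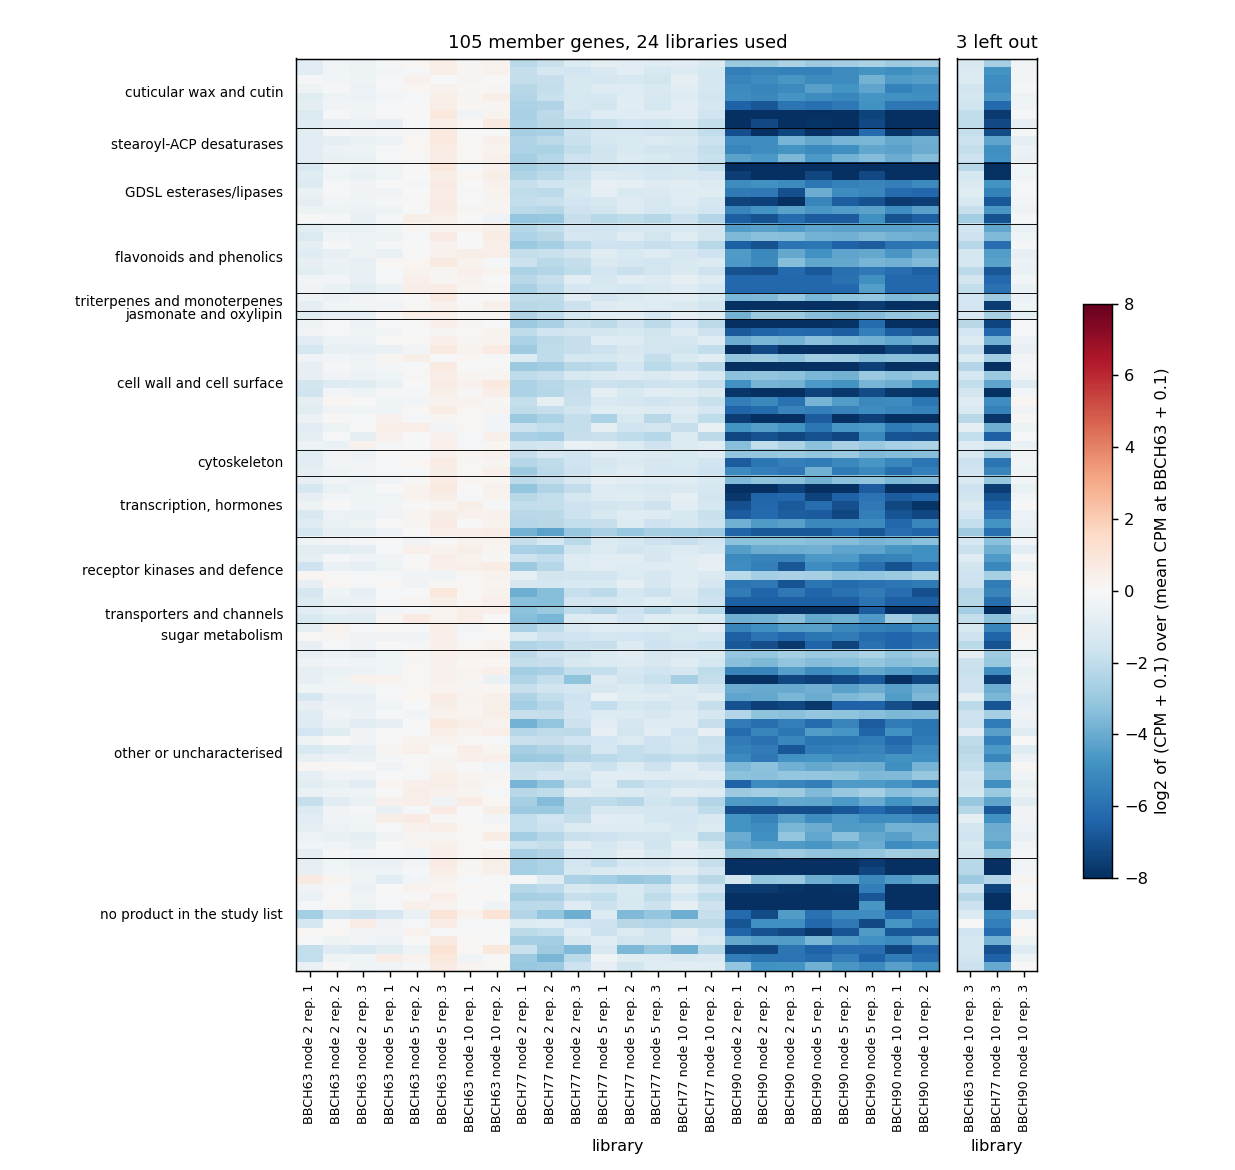
Level of each of the 105 genes (rows, grouped by product) in each library (columns), as the log2 ratio of CPM + 0.1 to the gene's mean at BBCH63 + 0.1. The columns of BBCH77 are moderately below the mean of BBCH63 and those of BBCH90 far below it for most genes, while the 3 libraries left out on the right do not follow their stage labels.

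The second step was the larger one for 104 of the 105 members. From BBCH63 to BBCH77 the fall had a median of 2.74-fold and ranged from 2.13- to 8.57-fold, and the middle 50% of the members lay between 2.47- and 3.34-fold. From BBCH77 to BBCH90 the median was 16.4-fold, the middle 50% lay between 6.01- and 59.8-fold, and the highest value was 1220-fold. The highest of these falls rested on few counts and moved with BBCH90 node 5 replicate 3, which was left out of them after the data were seen. Without it the mean at BBCH90 was more than 1.5 times lower for 16 members, and the middle 50% of the second step lay between 6.22- and 68.5-fold, with a median of 15.6-fold. The gene with the highest second step was Vitvi18g02126 with that library and Vitvi03g01390 without it, where each of these genes had 1 count in the other 7 libraries and 2 further members, Vitvi19g00735 and Vitvi00g04529, had 0, which gives no value to rank. The whole fall from BBCH63 to BBCH90 had a median of 45.8-fold, was under 10-fold for 13 members and over 100-fold for 37. The 8 libraries of BBCH63 were all above the 8 of BBCH77 for 77 members, where 2.57% of all 22999 genes tested did the same, and the libraries of BBCH77 were all above those of BBCH90 for 103 members, against 24.6% of the genes tested. The selection used both of these contrasts.

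**Figure D2:**
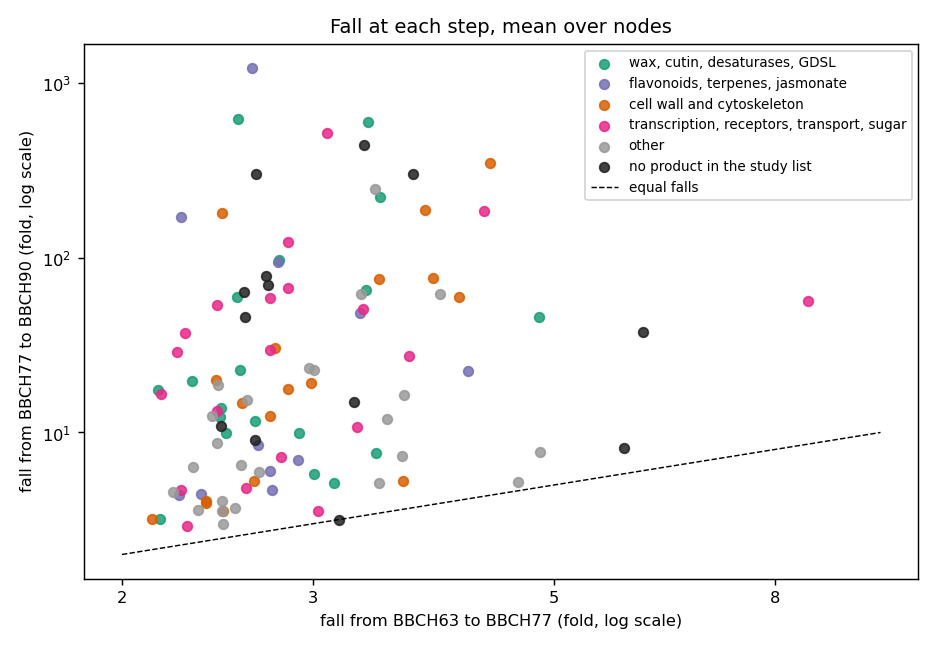
Fall from BBCH63 to BBCH77 (x axis, fold, log scale) against the fall from BBCH77 to BBCH90 (y axis, fold, log scale) for the 105 genes, each point being 1 gene as the mean of the 3 nodes, coloured by group of products. All points but 1 lie above the dashed line of equal falls, with a narrow spread along x (2.13 to 8.57) and a wide one along y (2.91 to 1220), where the highest points moved up without BBCH90 node 5 replicate 3.

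Products were known for 92 of the 105 members from the study's own list of 138 genes downregulated at each step, so 87.6% of the members are on that list and 66.7% of that list are members. The list was drawn up by the study on these samples and is not independent evidence of the direction. Of its other 46 genes, 36 were below the level asked at BBCH63, 9 missed the first step at 1 node or more and 1 missed both. Those named here and below were picked after their values were seen. They include the most abundant gene of the list outside the members, protein E6 (Vitvi10g01771), at 1080 CPM at BBCH63, whose least fall at the first step was 1.95-fold. Leucoanthocyanidin reductase 1 (Vitvi01g00234), which makes catechin units of condensed tannins, missed the same limit at 1.96-fold.

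Of the 9 wax and cutin genes on the list 8 were members, and at BBCH63 these 8 summed to 1340.7 CPM with a median of 156.1 CPM per gene. The highest was a GPI-anchored non-specific lipid transfer protein (Vitvi01g01657), of the type that carries wax lipids to the surface in Arabidopsis, with a lowest, median and highest library of 186, 323 and 482 CPM at BBCH63, 75.01, 162 and 200.1 CPM at BBCH77, and 41.8, 46.2 and 58.5 CPM at BBCH90. Its highest library at BBCH77 was above its lowest at BBCH63, and its whole fall of 6.92-fold was among the 3 smallest of all members. A gene for protein HOTHEAD (Vitvi09g00183), an oxidoreductase that in Arabidopsis makes dicarboxylic acids for cutin and keeps floral organs apart, had 151, 251 and 391 CPM at BBCH63, 72.9, 110.2 and 153 CPM at BBCH77, and 5.91, 7.34 and 10.7 CPM at BBCH90, with BBCH63 and BBCH77 just overlapping. The other HOTHEAD gene (Vitvi16g01854) went from a median of 115 CPM to 45.3 and then 2.00 CPM, with no overlap between stages.

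A non-specific lipid-transfer protein 2 (Vitvi14g02869), of a family of secreted lipid carriers, had medians of 207, 85.8 and 7.55 CPM. Genes of wax synthesis covered several steps of that pathway. The elongation of fatty acids was represented by 3-ketoacyl-CoA synthase 5 (Vitvi16g00804), the condensing enzyme, with medians of 136 CPM at BBCH63, 58.6 CPM at BBCH77 and 5.00 CPM at BBCH90, and by very-long-chain 3-oxoacyl-CoA reductase 1 (Vitvi01g00585), the reductase of the same complex, with 28.3, 9.44 and 0.0263 CPM. The O-acyltransferase WSD1 (Vitvi12g00292), which joins a fatty alcohol and a fatty acid to a wax ester, had medians of 157, 65.9 and 4.63 CPM. Alkane hydroxylase MAH1 (Vitvi07g01843), a cytochrome P450 that turns wax alkanes to secondary alcohols and ketones, nearly disappeared, with 22.6 to 93.8 CPM at BBCH63, 8.34 to 26.9 CPM at BBCH77 and 11 counts in all over the 8 libraries of BBCH90. Over the 8 members the second step ranged from 3.19-fold for the GPI-anchored transfer protein to 627.7-fold for MAH1, while the first step stayed between 2.17- and 3.46-fold. BBCH90 node 5 replicate 3 held 8 of the 11 counts of MAH1, and without it the second step of this gene was 1958.7-fold, from 3 counts, and its whole fall was 5011.5-fold (95% counting interval 1714.8 to 24301.3) in place of 1606.1-fold. The remaining gene of the list, an alcohol-forming fatty acyl-CoA reductase (Vitvi06g01455), had 1.10 CPM at BBCH63 and was below the level asked.

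All 4 stearoyl-ACP desaturases of the list were members. These plastid enzymes put the first double bond into stearic acid, and so set the supply of unsaturated fatty acids. They were at medians of 66.6 (Vitvi05g01619), 28.2 (Vitvi05g01605), 20.5 (Vitvi05g01620) and 16.8 (Vitvi05g04542) CPM at BBCH63. Their first steps were alike, at 3.01- to 3.43-fold, but at the second step Vitvi05g01619 was 65.3-fold lower while the other 3 were 5.11- to 7.64-fold lower, so that the most abundant of the 4 at BBCH63 was the least abundant at BBCH90, at 0.316 CPM. In the RefSeq annotation, Vitvi05g01605 and Vitvi05g01619 matched loci 4 genes apart on chromosome 5.

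GDSL esterases/lipases are a large family of secreted hydrolases, some of which polymerise cutin. Of the 8 on the list 7 were members, and the eighth (Vitvi09g00264), the most abundant of them at 553.8 CPM at BBCH63, was left out at 2.00-fold at the node of least fall at the first step (1.995). The pair named after Arabidopsis At5g33370, a cutin synthase there, were the highest members. Vitvi04g01007 had a lowest, median and highest library of 123, 275 and 556 CPM at BBCH63, 49.1, 94.4 and 116 CPM at BBCH77 and 0, 0.0920 and 0.698 CPM at BBCH90. Vitvi04g00997 had 135, 231 and 384 CPM at BBCH63, 48.4, 102 and 123 CPM at BBCH77 and 0.431, 0.874 and 1.65 CPM at BBCH90. The 2 genes matched RefSeq loci 4 genes apart on chromosome 4 and were near each other in level until BBCH77, while their second steps were 602.5- and 97.25-fold. BBCH90 node 5 replicate 3 held 27 of the 47 counts of Vitvi04g01007 at BBCH90, and without it the second step of that gene was 1143.2-fold. GDSL esterase/lipase At1g71691 (Vitvi18g02146) had the smallest first step of the group, at 2.16-fold, and a second of 17.6-fold. The other members were GDSL genes At4g26790 (Vitvi19g00564), 7 (Vitvi14g01317), At2g04570 (Vitvi12g04138) and At5g45910-like (Vitvi12g00213), at medians of 70.4, 56.4, 12.2 and 12.05 CPM at BBCH63, and the smallest second step was that of Vitvi12g04138, 9.94-fold.

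Of the 13 genes of flavonoids, stilbenes and other phenolics 8 were members, and only 1 of these exceeded 100 CPM at BBCH63. It was a cinnamate glucosyltransferase-like gene (Vitvi03g00568, GT3 in RefSeq), with a median of 123 CPM at BBCH63, 46.3 CPM at BBCH77 and 6.50 CPM at BBCH90. Next were an anthocyanidin 3-O-glucosyltransferase 2-like gene (Vitvi11g01294, VVGT6 in RefSeq), with 35.4, 14.8 and 3.15 CPM, and UDP-glycosyltransferase 79B9 (Vitvi19g00177), with 27.6, 7.21 and 0.293 CPM. The methyltransferases were VvAOMT (Vitvi01g04438), which methylates anthocyanins, with medians of 20.7, 8.95 and 1.07 CPM, and a trans-resveratrol di-O-methyltransferase-like gene (Vitvi15g00396), whose relatives make pterostilbene, with 17.9, 6.70 and 1.09 CPM.

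Chalcone synthase makes the first flavonoid intermediate, and the members annotated with it were low genes. Vitvi00g04601 had 4.86 to 10.4 CPM at BBCH63, 1.57 to 4.59 CPM at BBCH77 and 7 counts over the 8 libraries at BBCH90. For Vitvi00g04529 these were 4.27 to 11.4 CPM, 1.16 to 3.59 CPM and 10 counts. They matched neighbouring RefSeq loci on chromosome 16, and Vitvi00g04529 shares its RefSeq protein with a further listed gene (Vitvi16g04303), so how reads were divided among these copies is uncertain. A probable cinnamyl alcohol dehydrogenase 1 (Vitvi03g00561), an enzyme of lignin precursors, went from a median of 17.2 CPM to 4.82 and 0.0985 CPM.

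Both triterpene members act one after the other in making oleanolic acid, the main triterpenoid of the grape berry cuticle. Beta-amyrin synthase 1 (Vitvi09g02008), which closes the ring system, had 46.1 to 105 CPM at BBCH63, 15.6 to 36.6 CPM at BBCH77 and 5.01 to 7.97 CPM at BBCH90. The beta-amyrin 28-monooxygenase-like gene (Vitvi18g02126), which oxidises its product, had 21.3 to 48.7 CPM, 7.81 to 18.1 CPM and 4 counts over the 8 libraries of BBCH90. The first step was alike at 2.36- and 2.63-fold, but the whole fall was 10.5-fold for the synthase and 3211.9-fold for the oxidase, with a 95% counting interval of 1254.5- to 11788.2-fold. BBCH90 node 5 replicate 3 held 3 of the 4 counts, and without it the fall was 13622.3-fold, from 1 count, with an interval of 2444.9- to 538051.8-fold. The single member on jasmonate, the jasmonic acid-amido synthetase JAR1 (Vitvi12g00480), which joins jasmonic acid to isoleucine and so makes the active hormone, had medians of 15.8, 6.78 and 1.48 CPM.

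Cell wall and cell surface genes were the most numerous named products with 15 of 18, and the largest by abundance, at 3005.3 CPM in all at BBCH63. Fasciclin-like arabinogalactan protein 13 (Vitvi12g00248), a surface glycoprotein, had a lowest, median and highest library of 679, 915 and 1227.0 CPM at BBCH63, 123, 213 and 315 CPM at BBCH77 and 2.18, 2.72 and 12.8 CPM at BBCH90. Classical arabinogalactan protein 9 (Vitvi03g00598) had 706, 860.0 and 1091.7 CPM, then 219, 317 and 442 CPM, then 7.30, 9.90 and 20.7 CPM. Protein EXORDIUM-like 3 (Vitvi16g00793), of a family of cell expansion proteins that respond to brassinosteroid in Arabidopsis, kept more, with medians of 407, 143 and 26.8 CPM. Stages did not overlap for any of the 3. The proline-rich protein 4-like gene (Vitvi03g01389), a structural wall protein, was at medians of 136 and 31.3 CPM and was counted 33 times in all over the 8 libraries of BBCH90. L-ascorbate oxidase (Vitvi07g02676) had the smallest first step of all members, at 2.13-fold.

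Smaller groups held some genes of cell growth and identity. Of 9 listed genes of the cytoskeleton and of vesicle traffic 3 were members, tubulin beta-1 (Vitvi18g01120), a microtubule subunit, with medians of 154, 65.7 and 17.2 CPM, the ROP effector RIC4 (Vitvi05g02120), a regulator of tip growth, with 32.8, 12.5 and 0.642 CPM, and formin-like protein 8 (Vitvi17g00731), an actin nucleator, with 9.08, 3.50 and 0.131 CPM. Another 5 of these 9 genes were below the level asked at BBCH63, and the actin-depolymerizing factor 5 (Vitvi03g00129) was the gene nearest to entering, at 1.997-fold in the first step.

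Transcription, hormone response and cell identity gave 7 members of 9 listed. Somatic embryogenesis receptor kinase 1 (Vitvi01g01727), a co-receptor kinase, had medians of 124, 60.1 and 12.7 CPM, the myb-related gene Vitvi01g01052, a transcription factor, 74.5, 30.5 and 0.172 CPM, and auxin-induced protein 6B (Vitvi03g01336), a SAUR-type gene, 29.5, 13.2 and 0.275 CPM. Auxin-binding protein ABP19a (Vitvi09g01515), singled out after its values were seen, had the largest first step of all members, 8.57-fold, from 3.999 to 16.7 CPM at BBCH63 to 0.456 to 1.698 CPM at BBCH77.

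Receptor kinases and defence gave 8 of 11. Among them the LRR receptor-like kinase At1g07650 (Vitvi12g00116), of the receptor kinases that sense signals at the membrane, had medians of 149, 50.1 and 14.8 CPM. The RING-H2 finger protein ATL22-like (Vitvi00g04044), of a family of ubiquitin ligases, had 41.5, 15.1 and 2.04 CPM, and the LRR receptor-like kinase At1g05700 (Vitvi09g00253) 33.3, 17.4 and 0.862 CPM. The group also held the smallest whole fall of all members, 6.67-fold for the kinase EDR1 (Vitvi05g00961), a regulator of defence in Arabidopsis.

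Transporters had 2 of 7 genes among the members, ABC transporter G family member 15 (Vitvi06g01290), a membrane exporter, with medians of 64.1, 15.6 and 0.0274 CPM, and the putative transporter arsB (Vitvi02g00301), with 25.6, 11.4 and 1.63 CPM. In the latter, BBCH77 overlapped with both other stages. Sugar metabolism had 3 of 4, the soluble acid invertase beta-fructofuranosidase (Vitvi16g00713), which splits sucrose, with medians of 76.1, 34.1 and 2.30 CPM, a probable galactinol-sucrose galactosyltransferase (Vitvi19g00768), which makes raffinose, with 37.2, 13.4 and 0.452 CPM, and a probable sucrose-phosphate synthase 1 (Vitvi04g00508), which makes the precursor of sucrose, with 19.7, 6.08 and 0.114 CPM.

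The 24 members of other or uncharacterised products had the lowest median of the second step among groups of more than 3 members other than the desaturases, 7.49-fold against 16.4-fold over all members. They include an uncharacterised protein (Vitvi06g01513), with 827, 1268.6 and 1724.5 CPM as the lowest, median and highest library at BBCH63, 302, 535 and 737 CPM at BBCH77, and 151, 168 and 227 CPM at BBCH90. Aldehyde dehydrogenase family 3 member F1 (Vitvi04g01402), of a family that detoxifies aldehydes, had medians of 846, 365 and 86.5 CPM, and a UDP-glycosyltransferase 90A1-like gene (Vitvi14g03025) 75.2, 21.1 and 2.99 CPM. Vitvi06g01513 and Vitvi04g01402 were also the most abundant members at BBCH90, at means of 175.8 and 88.1 CPM.

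No product was given in the study's list for 13 members, and their IDs were not matched here to any annotation. One of them, Vitvi18g02493, was the most abundant member at BBCH63, with 836, 1168.9 and 2225.3 CPM as the lowest, median and highest library. It had 226, 430.1 and 611 CPM at BBCH77, and at BBCH90 it had 0 to 0.453 CPM in 7 libraries and 6.95 CPM in the other one. Vitvi13g02530 followed a like course, with 218 to 497 CPM, 52.7 to 185 CPM and 0.0516 to 2.02 CPM. By contrast Vitvi11g00231 overlapped between stages at both steps, with 89.5 to 272 CPM at BBCH63, 20.2 to 158 CPM at BBCH77 and 4.63 to 61.9 CPM at BBCH90, and it was the 1 member whose first step, at 3.17-fold, exceeded its second, at 3.13-fold. The other 10 (Vitvi06g00396, Vitvi03g01390, Vitvi15g00874, Vitvi11g00708, Vitvi00g04564, Vitvi03g00392, Vitvi15g04001, Vitvi10g01616, Vitvi13g00085 and Vitvi17g04216) had means between 7.25 and 138.4 CPM at BBCH63.

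Members near the limits differed little from genes just outside them. Closest above the level asked at BBCH63 were Vitvi13g00085, at 5.201 CPM, and Vitvi00g04529, at 5.204 CPM, at their lowest node, and closest below were profilin-2 (Vitvi11g00247), at 4.76 CPM, and zinc transporter 11 (Vitvi19g02057), at 4.70 CPM. At the first step the members of least fall at any node were Vitvi07g02676 (2.001-fold) and Vitvi12g00480 (2.004-fold), beside Vitvi03g00129 (1.997-fold) and Vitvi09g00264 (1.995-fold) outside. At the second step they were Vitvi14g01885 (2.12-fold) and Vitvi14g01923 (2.21-fold), with Vitvi07g00207 (1.995-fold) and Vitvi14g00972 (1.96-fold) outside. With 1 library left out at a time, 55 of the 105 members met the limits in every one of the 24 sets.

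The limits that chose the genes were set at each node, so they used the levels of the nodes, but they did not compare one node with another. Nodes were compared within each stage and over the mean of the stages. At BBCH63 and BBCH77 most members were higher in buds of nodes 5 and 10 than in those of node 2. The summed level of the 105 genes at BBCH63 was 8989.1 ± 1061.1 CPM at node 2 (SD, n = 3), 13118.3 ± 3233.1 CPM at node 5 (n = 3) and 14211.9 ± 804.8 CPM at node 10 (n = 2). At BBCH77 it was 3268.0 ± 737.5 CPM at node 2, 4800.9 ± 442.8 CPM at node 5 and 4805.5 ± 744.4 CPM at node 10, and at BBCH90 558.4 ± 54.5, 581.4 ± 76.0 and 523.4 ± 50.1 CPM. Node 2 was below both other nodes for 99 of the 105 members at BBCH63 and for 99 at BBCH77, but for 39 at BBCH90. The lowest library of its stage was BBCH63 node 2 replicate 1 for 81 members and BBCH77 node 2 replicate 1 for 74. In the former, 60 of the 105 were nearer to their mean at BBCH77 than to that of BBCH63. The highest library of BBCH63 was node 5 replicate 3, for 60 members. By column totals the 14219 other genes above the level asked at BBCH63 were also higher, by a median log2 difference of 0.20 at node 5 and 0.14 at node 10 over node 2 at BBCH63 and of 0.22 and 0.18 at BBCH77. The members were higher by 0.63, 0.65, 0.67 and 0.64 on the same scale.

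**Figure D3:**
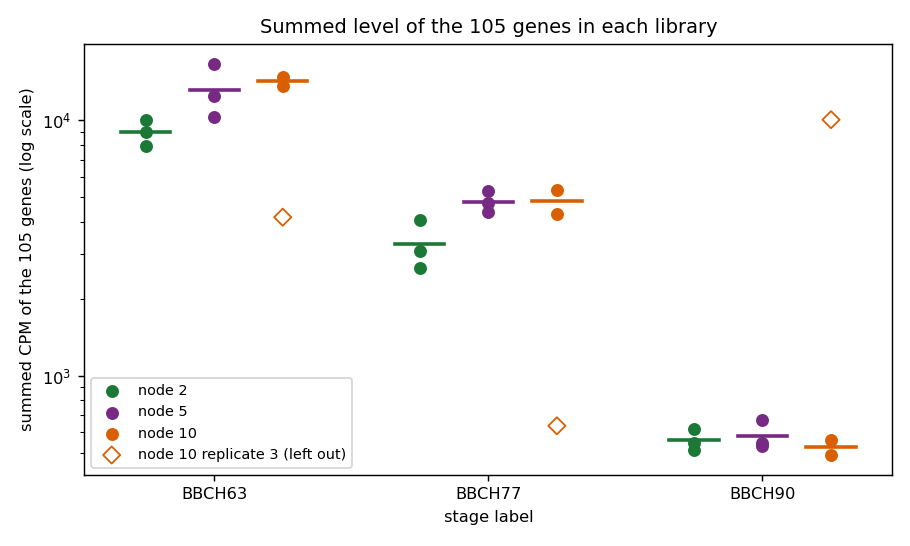
Summed CPM of the 105 genes (y axis, log scale) in each library by stage label (x axis) and node (colour), with bars for the mean of the libraries used. Node 2 lies lowest at BBCH63 (8989.1 CPM) and BBCH77 (3268.0 CPM), the nodes lie together at BBCH90, and the open diamonds of node 10 replicate 3 lie apart from the other libraries with their labels.

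The test of nodes was made on the counts with TMM scaling, which removes such a shift, in edgeR (quasi-likelihood test, Benjamini-Hochberg adjustment over the 22999 genes tested, which include all 105 members). DEGs differed 2-fold or more with an adjusted p below 0.05. For node 5 vs node 2 at BBCH63, 96 of the 105 members had a log2 fold change above 0, with a median of 0.45, where 53.2% of all genes tested were above 0 with a median of 0.03. For node 10 vs node 2 at BBCH63 this was 95 members with a median of 0.52, against 51.1% and 0.01. At BBCH77 it was 93 members for node 5 (median 0.46, against 51.9% and 0.02) and 95 for node 10 (0.48, against 52.3% and 0.02). At BBCH90 it was 76 members for node 5 (0.32, against 56.3% and 0.03) and 45 for node 10 (-0.04, against 51.3% and 0.01). These comparisons share the node 2 libraries of their stage. All 8 wax and cutin members, all 8 phenolic members, all 4 desaturases and all 7 members of transcription and hormone response were above 0 in each of the 4 comparisons at BBCH63 and BBCH77, as were the smaller groups of the cytoskeleton, transporters, triterpenes and jasmonate. The other groups had members on both sides in 1 comparison or more. Above 0 were 12 to 14 of the 15 cell wall genes, 6 or 7 of the 7 GDSL genes, 22 or 23 of the 24 other or uncharacterised, 5 to 8 of the 8 receptor kinases and defence genes and 8 to 10 of the 13 with no product. Of the 3 sugar genes it was 1 for node 10 at BBCH63, with a median of -0.012, and 2 in the other comparisons. With DESeq2 size factors in place of TMM the counts of members above 0 at these 2 stages were 98, 95, 93 and 94.

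**Figure D4:**
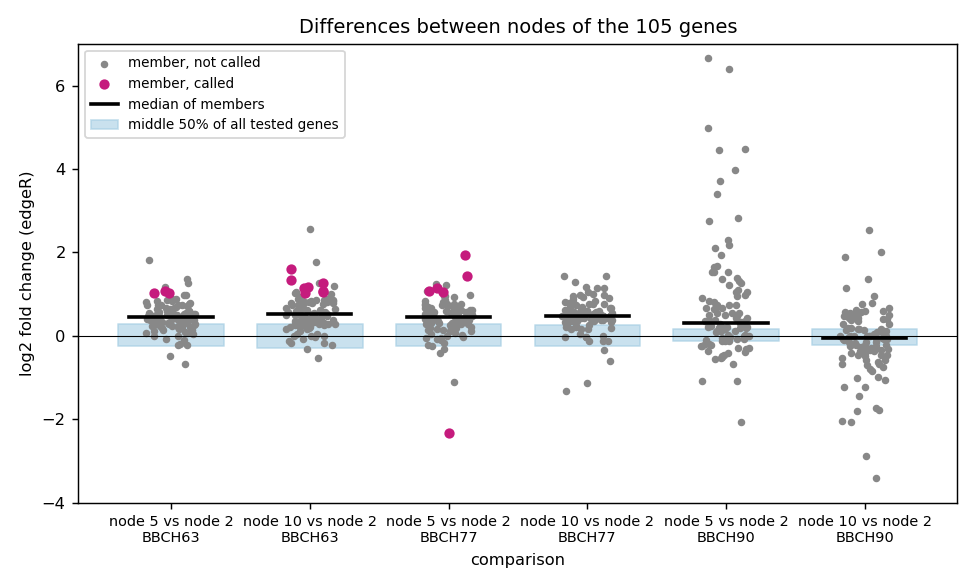
Log2 fold change in edgeR (y axis) of the 105 genes in the 6 comparisons of a node with node 2 within a stage (x axis), each point being 1 gene, with DEGs in colour, the median of the members as a bar and the middle 50% of all genes tested as a blue band. The medians are 0.45 to 0.52 at BBCH63 and BBCH77 and 0.32 and -0.04 at BBCH90, and the highest points at node 5 at BBCH90 are not called.

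Few of these differences were called. DEGs among the members were 3 for node 5 vs node 2 at BBCH63, where 4.82% of all genes tested were called, 8 for node 10 vs node 2 at BBCH63 (4.61% of all), 6 for node 5 vs node 2 at BBCH77 (4.89% of all) and 0 for node 10 vs node 2 at BBCH77 (1.6% of all). At BBCH90 no gene of the 22999 was called in either comparison (0%). Averaged over stages, 7 members were called for node 5 vs node 2 (3.65% of all), 1 for node 10 vs node 2 (3.25%) and 0 for node 10 vs node 5 (0.0739%). As shares of the 105 these are 2.86, 7.62, 5.71, 0, 6.67, 0.952 and 0% in edgeR, each less than 2 times the share of all genes. Among the comparisons with no member called, an unadjusted p under 0.05 was reached by 29 members (27.6%, against 22.3% of all genes tested) for node 10 vs node 2 at BBCH77, by 19 (18.1%, against 7.88%) and 9 (8.57%, against 9.5%) for nodes 5 and 10 at BBCH90 and by 8 (7.62%, against 12.5%) for node 10 vs node 5. In the same order DESeq2 called 2 members (1.9%), 7 (6.67%), 1 (0.952%) and 1 (0.952%), where it called 4, 0.837, 0.615 and 0.551% of all genes with an adjusted p. For node 5 vs node 2 over the mean of stages DESeq2 called 14 members (13.3%, against 4.03%), a larger share than in edgeR. DESeq2 was not run without BBCH90 node 5 replicate 3, on which most of the higher calls of edgeR over the mean of stages depended, as given below. Nearly all calls were higher than node 2, unlike those of all genes. All calls of members at BBCH63 were higher, where 1.7% of all genes were called higher and 3.12% lower at node 5 and 1.62% and 2.99% at node 10. At BBCH77 it was 5 higher and 1 lower at node 5 (1.19% and 3.7% of all), with none at node 10 (0.261% and 1.33%). Over the mean of stages it was 6 higher and 1 lower at node 5 (0.504% and 3.15%) and 0 higher and 1 lower at node 10 (0.196% and 3.05%).

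Whether the libraries of 2 nodes overlapped was compared after TMM scaling. All libraries of node 10 were above all of node 2 at BBCH63 for 75 members, where 27.3% of all genes tested did so, and all below for 1 (25.2%). For node 5 these were 30 (18.9%) and 1 (18.7%). At BBCH77 they were 50 (11.8%) and 2 (9.93%) at node 5 and 35 (14.1%) and 1 (10.5%) at node 10. At BBCH90 they were 7 (6.32%) and 6 (4.67%) at node 5 and 5 (18.5%) and 16 (14.8%) at node 10, so that fewer members than genes tested were higher at node 10, 4.76% against 18.5%.

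The counts of calls moved with single libraries. Without BBCH77 node 2 replicate 3, which stood apart from its group, 20 members were called for node 5 vs node 2 and 16 for node 10 vs node 2 at BBCH77, and 14 for node 5 vs node 2 over the mean of stages. The share of all genes called in fits with 1 library left out was not counted. Whether such a rise was particular to the members is therefore not known. Without BBCH77 node 2 replicate 1 the call count for node 5 vs node 2 at that stage was 0, and without either library of node 10 at BBCH63 that for node 10 vs node 2 at BBCH63 was 0. The number of members above 0 moved less, from 84 to 98 for node 5 and from 94 to 97 for node 10 at BBCH63 and from 89 to 97 and from 86 to 100 at BBCH77 with 1 library left out. The median of node 5 vs node 2 at BBCH63 was 0.19 without BBCH63 node 5 replicate 3, and that of node 10 vs node 2 at BBCH77 was 0.21 without BBCH77 node 10 replicate 1. At BBCH90 the members above 0 at node 5 were 57, with a median of 0.03, without BBCH90 node 5 replicate 3. With node 10 replicate 3 added under its labels, 70 members were above 0 for node 10 vs node 2 at BBCH63, and 48, with a median of -0.03, at BBCH77.

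Vitvi11g00231, of no known product here, was lower at node 5 than at node 2, against the direction of most members, and was called in 3 comparisons. Its level at node 2 was 272, 195 and 137 CPM at BBCH63, 158, 86.6 and 28.9 CPM at BBCH77 and 61.9, 19.7 and 20.4 CPM at BBCH90. At node 5 it was 89.5, 141 and 202 CPM, then 24.7, 20.2 and 23.1 CPM, then 10.8, 8.70 and 4.63 CPM. Node 10 had 148 and 159 CPM, 51.3 and 35.8 CPM, and 7.04 and 9.44 CPM. The nodes overlapped at BBCH63, while at BBCH77 and BBCH90 all libraries of node 5 were below all of node 2. Averaged over stages it was lower at node 5 than at node 2 by a log2 fold change of -1.69 (SE 0.32, edgeR adjusted p = 0.00249), which was called in all 24 fits that left out 1 library and had an adjusted p of 1.72e-06 to 0.0688 over all alternatives, the highest with all 27 libraries. For node 10 vs node 2 it was -1.31 (SE 0.36, edgeR adjusted p = 0.0251), and this call was lost in 8 of the 24 fits, with adjusted p of 0.0504 to 0.0841 there and of 0.00178 to 0.654 over all alternatives.

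JAR1 (Vitvi12g00480) was called for node 5 vs node 2 at BBCH63. It had 7.41, 8.78 and 8.78 CPM at node 2 at BBCH63, 15.8, 21.3 and 21.2 CPM at node 5, and 15.8 and 17.1 CPM at node 10, with no overlap of node 2 with either. The log2 fold change of node 5 vs node 2 was 1.04 (SE 0.22, edgeR adjusted p = 0.00818). It fell under 2-fold without BBCH63 node 2 replicate 1 (0.99), node 5 replicate 2 (0.95) or node 5 replicate 3 (0.95), at adjusted p of 0.0361 to 0.0463. Over all alternatives the edgeR or DESeq2 adjusted p was 9.70e-05 to 0.349. VvAOMT (Vitvi01g04438) had 11.9, 15.3 and 17.8 CPM at node 2, 15.7, 23.7 and 29.8 CPM at node 5 and 32.5 and 35.2 CPM at node 10 at BBCH63, and was called for node 10 vs node 2 (1.04, SE 0.29, edgeR adjusted p = 0.0303), a call lost without BBCH63 node 2 replicate 1 or 2 or without either library of node 10, with adjusted p of 0.00489 to 0.831 over all alternatives.

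The other members called within a stage were named after their values were seen. For node 10 vs node 2 at BBCH63 they were the glucan 1,3-beta-glucosidase Vitvi07g02538, the xyloglucan endotransglucosylase/hydrolase 2 Vitvi05g01266, ABP19a (Vitvi09g01515), the ATL22-like gene Vitvi00g04044, Vitvi12g01605, Vitvi08g01250 and Vitvi19g02058, with log2 fold changes of 1.02 to 1.61. Vitvi07g02538 had 20.2, 27.04 and 27.98 CPM at node 2, 37.9, 53.9 and 82.4 CPM at node 5 and 72.0 and 95.1 CPM at node 10, and with Vitvi19g02058 was called in both comparisons of that stage. At BBCH77 the calls for node 5 vs node 2 were Vitvi13g00085 (1.93, with 1.07, 0.607 and 1.90 CPM at node 2 and 7.18, 4.5 and 4.202 CPM at node 5), Vitvi08g04243, Vitvi07g02680, the myb-related gene Vitvi01g01052 and the glycine-rich protein 5-like gene Vitvi07g02317 as higher and Vitvi11g00231 as lower. Of all 25 calls of a member in a comparison, 1 was called in every fit with 1 library left out, that of Vitvi11g00231 over the mean of stages for node 5.

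Of the 6 members called higher at node 5 over the mean of stages, 5 were high in a single library of BBCH90 and were not called without it. BBCH90 node 5 replicate 3 held 269 counts of Vitvi18g02493, where the other 7 libraries of that stage held 0 to 16. It held 27 counts of Vitvi03g01389, against 0 to 5, 26 of Vitvi03g01390, against 0 or 1, 27 of the GDSL gene Vitvi04g01007, against 0 to 5, and 6 of the chalcone synthase gene Vitvi00g04601, against 0 or 1. The log2 fold changes of these 5 averaged over stages were 1.57, 2.52, 2.33, 1.20 and 1.69, with edgeR adjusted p of 0.0428, 0.0142, 0.0459, 0.0394 and 0.0499. Without that library they were 0.36, 1.89, 1.01, 0.49 and 1.01, with edgeR adjusted p of 0.511, 0.0508, 0.424, 0.462 and 0.292. Leaving out other libraries also ended all of these calls but that of Vitvi03g01389, and over all alternatives the adjusted p of the 5 reached 0.511 to 0.619. Node 2 had no count at BBCH90 for Vitvi03g01389, Vitvi03g01390 and Vitvi00g04601, so their fitted values depend on the prior count. GDSL esterase/lipase 7 (Vitvi14g01317) was the sixth, at 1.001 (SE 0.21, edgeR adjusted p = 0.00446), just at 2-fold, and was under 2-fold in 7 of the 24 fits, the lowest (0.75) without BBCH90 node 5 replicate 1, with an adjusted p of 2.91e-05 to 0.516 over all alternatives.

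That library held more counts of many members that were otherwise nearly absent at BBCH90. How many of all genes, or of other genes as low at BBCH90, were also highest in it was not counted. Whether this was particular to the members is therefore not known, and the choice of the genes required low levels at BBCH90. Of the 54 members under 1 CPM in each of the 7 other libraries, 31 were higher in it than in all 7, and these 54 genes summed to 1318 counts in it and to 394 to 581 counts in the others. Those at least 5-fold above the mean of the other 7, among genes with more than 3 counts there, were 10, and included Vitvi15g00874 (92 counts in that library and 8 in the other 7 together), Vitvi13g02530 (78 and 62), Vitvi06g00396 (113 and 127) and the ABC transporter Vitvi06g01290 (23 and 6). As a share of their mean at BBCH63 these levels were small, 0.489% for Vitvi18g02493, 0.583% for Vitvi13g02530, 0.842% for Vitvi06g01290 and 3.86% for Vitvi15g00874. Among members at 5 CPM or more at BBCH90 some also differed in it. Arabinogalactan protein 9 (Vitvi03g00598) had 20.7 CPM against 7.30 to 12.3 CPM in the other 7 libraries and the lipid-transfer protein Vitvi14g02869 15.6 against 5.44 to 10.2 CPM, while Vitvi11g00231 was lower, at 4.63 against 7.04 to 61.9 CPM. The most abundant, Vitvi06g01513, had 227 CPM against a highest value of 205 CPM in the other 7. The library's total was within the range of the others, and what set it apart was not tested.

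**Figure D5:**
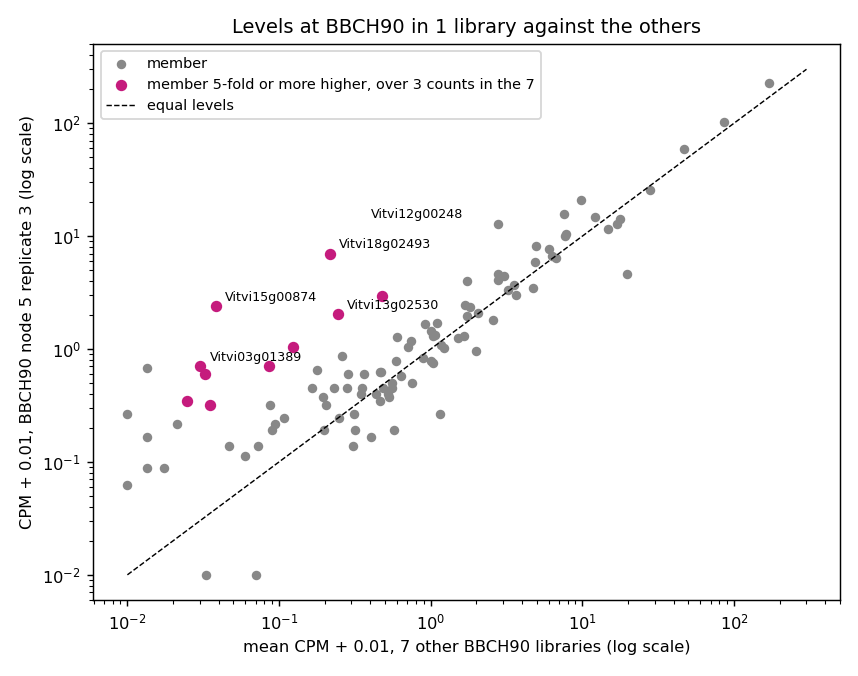
CPM + 0.01 of each of the 105 genes in BBCH90 node 5 replicate 3 (y axis, log scale) against the mean of CPM in the 7 other BBCH90 libraries + 0.01 (x axis, log scale), with the line of equal levels. Most abundant genes lie near the line, while 10 genes (colour) that were near 0 in the other libraries lie at least 5-fold above it, among them Vitvi18g02493 at 6.95 CPM.

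Of the 3 libraries left out, those labelled BBCH63 and BBCH77 were not used to choose the genes. In all 3 the members did not follow the stage labels. BBCH63 node 10 replicate 3 had a summed level of 4169.8 CPM, within the range of BBCH77 and below all 8 libraries of BBCH63, and 102 of the 105 members were nearer to their mean at BBCH77 than to those of BBCH63 and BBCH90 on the log2 scale. BBCH77 node 10 replicate 3 had 636.1 CPM, within the range of BBCH90, with 103 members nearest to their mean at BBCH90. BBCH90 node 10 replicate 3 had 10040.4 CPM, and its counts are identical to those of BBCH63 node 2 replicate 2 at all genes, so the 2 columns are 1 library. That library was used, under its BBCH63 label, to choose the genes, so the column left out is not independent of the choice. Across the 3000 most variable genes the correlation of these libraries with the other 2 of their label was 0.0489, -0.658 and -0.688. With all 27 libraries under their own labels 1 gene, not among the 105, met the limits.

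RefSeq loci were matched for 70 of the members through the protein named in the study's list. Apart from the pairs given above, 3 further pairs of members lay within 10 genes of each other, Vitvi14g03025 and Vitvi14g04632, UDP-glycosyltransferase 90A1-like genes next to each other on chromosome 14, Vitvi03g00561 and Vitvi03g00568 on chromosome 3, and Vitvi01g01052 and Vitvi01g01085 on chromosome 1. Of the glycosyltransferases, the first had medians of 75.2, 21.1 and 2.99 CPM and the second 8.73, 2.78 and 0.466 CPM, so their levels differed while both steps were near each other, at 3.62- and 7.29-fold and at 3.45- and 5.11-fold.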

How the data were processed

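The authors deposited 1 table of counts of reads on each gene for 27 libraries, not normalized, after mapping to the PN40024.v4 genome. The submitters' processing notes name FastQC, HISAT2 and HTSeq, with no version. Whether counting used the strand is not given in the sources used here. From these counts CPM was computed with the column total. After filterByExpr (minimum count 10), genes were fitted with 1 mean per group over 24 libraries in edgeR 4.0.16 (TMM, quasi-likelihood test), under R 4.3.3. Standard errors were derived from the fold change and its F statistic. Everything else was computed in Python 3.11.15 (pandas 2.3.3, numpy 2.4.6).

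Replicates are separate pools of buds. Intervals cover counting error only. The members and gene lists were chosen with earlier results of these data known. Named genes are the 3 highest of each group of products (all, in the groups on cuticle lipids, phenolics, jasmonate and triterpenes), the 5 highest members, the 3 largest and 3 smallest falls, the members called over the mean of stages, those at the limits and those with no product. Tested on simulated counts of 22999 genes, edgeR recovered 96.5% of 200 genes changed 4-fold between nodes 5 and 2 over the mean of stages, with 1 false call, and DESeq2 98.5% with 6. For node 5 vs node 2 at BBCH63 edgeR recovered 89% with 5 false calls and DESeq2 94% with 20. Changes under 4-fold, as in most members, were not simulated, so their recovery is not known. Alternatives were DESeq2 1.42.0, its size factors in edgeR, no filter, added libraries, each library left out, the replicate number as a block, an adjusted p under 0.01 and, for the choice of genes, other scalings, limits and the median. Falls without BBCH90 node 5 replicate 3 were added after seeing the data. Promoters, proteins and other genes of the same families were not analysed here.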

Additional observations from a re-analysis of the deposited data

Results flagged for a closer look

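For the ATL22-like gene Vitvi00g04044 the libraries of nodes 10 and 2 were apart at every stage, but not in the same direction. All libraries of node 10 were above all of node 2 at BBCH63 (log2 fold change 1.02) and at BBCH77 (0.81), and all were below node 2 at BBCH90 (-0.75). Its levels at BBCH90 were 1.79, 2.41 and 2.61 CPM at node 2 and 1.5 and 1.24 CPM at node 10. Only the difference at BBCH63 was called (edgeR adjusted p = 0.0158, with 0.00128 to 0.849 over all alternatives), and that call was lost without BBCH63 node 2 replicate 2 (0.96) or without BBCH63 node 10 replicate 1 (0.88) or 2 (adjusted p = 0.0695). The edgeR adjusted p was 0.0802 at BBCH77 and 0.42 at BBCH90. The difference between the stages was not tested.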

How the results depend on the processing

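The 105 members became 325 with falls of 1.5-fold, 21 with 3-fold and 1 with all 27 libraries. Other scalings, floors, medians and added libraries gave 87 to 137, and 1 library left out 84 to 115. With DESeq2, 14 members were called for node 5 vs node 2 over the mean of stages (13.3%, against 4.03% of all genes with an adjusted p). For node 10 vs node 2 it was 2 (1.9%, against 4.04%), and for node 10 vs node 5 it was 1 (0.952%, against 0.551%). In the order node 5 vs node 2 and node 10 vs node 2 over the mean of stages, members called were 2 and 0 at an adjusted p under 0.01, 1 and 1 with node 10 replicate 3 added at BBCH63 and BBCH77, and 0 and 0 with all 27 libraries. At BBCH63 DESeq2 called 5 for node 5 (4.76%, against 6.19%) and 12 for node 10 (11.4%, against 6.59%). At BBCH77 it called 9 for node 5 (8.57%, against 5.87%) and 2 for node 10 (1.9%, against 4%). At BBCH90 it called 7 for node 5 (6.67%, against 0.837%) and 1 for node 10 (0.952%, against 0.615%). DESeq2 was not run with a library left out. How far its shares for node 5 at BBCH90 and over the mean of stages rested on BBCH90 node 5 replicate 3 is therefore not known. Among the alternatives, the share of all genes called was counted for DESeq2 only. At an adjusted p under 0.01 the members called were 1 for node 5 and 1 for node 10 at BBCH63 and 1 for node 5 at BBCH77, and with replicates added, or with all 27 libraries, these 3 were 0. DESeq2 size factors in edgeR gave the main counts, and no filter gave counts within 1.5 times. Of the 25 calls of a member, all 25 held with DESeq2, while 25 were lost with all 27 libraries, 23 with node 10 replicate 3 added, 20 at an adjusted p under 0.01, 4 with the block and 3 with no filter, and none turned in direction. The cause of the changes was not tested.

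With 1 library left out, members called ranged from 2 to 14 for node 5 vs node 2 and from 0 to 4 for node 10 vs node 2 over the mean of stages, and stayed 0 for node 10 vs node 5. They ranged from 0 to 5 and from 0 to 12 for nodes 5 and 10 at BBCH63, from 0 to 20 and from 0 to 16 at BBCH77, and from 0 to 1 for node 5 at BBCH90 (1 without BBCH90 node 5 replicate 3). Counts of 2 for node 5 over the mean of stages came without BBCH63 node 2 replicate 1, BBCH63 node 5 replicate 3, BBCH77 node 2 replicate 1 or BBCH77 node 2 replicate 2, a count of 3 without BBCH90 node 5 replicate 3, and 14 without BBCH77 node 2 replicate 3 or BBCH90 node 5 replicate 1. At BBCH63, node 5 had 0 without node 2 replicate 1 or node 5 replicate 2, and node 10 had 3 and 5 without node 2 replicates 1 and 2.

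Replicate numbers are shared by all groups, and whether they pair the libraries was not tested. Deviations from the group means correlated with a median of 0.0527 in 87 same-numbered pairs (-0.194 to 0.454, 30 over 0.1). In 168 other pairs the median was -0.0164 (-0.43 to 0.247, 21 over 0.1), so same-numbered libraries were somewhat more alike. With the replicate block the members called were 4 for node 10 vs node 2 over the mean of stages, 16 for node 10 at BBCH63, 10 for node 5 at BBCH77 and 7 for node 10 at BBCH77. Without the block these were 1, 8, 6 and 0. The share of all genes called with the block was not counted.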
